A study of Mus musculus with 2 samples.

Results

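Cortical radial glia were taken from single-nucleus RNA-seq of embryonic mouse neocortex, in which transcripts of single nuclei are counted as unique molecular identifiers (UMIs). A nucleus was included when it held at least 500 detected genes and at least 4 of 9 radial glia genes (Slc1a3, Pax6, Sox2, Hes5, Tnc, Veph1, Gli3, Slco1c1, Hes1). It also had fewer than 2 of 4 astrocyte genes (Aqp4, Slc6a11, Aldh1l1, Agt) and no UMI of Pdgfra, Dlx1, Dlx2 or Eomes. Members were thus chosen by their own UMI counts of these 17 genes, which are not treated as findings, and every other gene of the same nuclei is described and not tested. These criteria selected 692 of 17198 nuclei, 421 of 10731 in the library labelled MEN1-NCKO and 271 of 6467 in the library labelled MEN1-F/F. The labels do not spell out NCKO or F/F, which are used below as the short names of the libraries. The sources used here do not give the driver of any deletion in the NCKO library, the embryonic age or the number of embryos behind each library. Each label has 1 library, so the values below compare these libraries, no test was possible, and the 95% intervals cover counting error only.

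Radial glia are the neural stem cells of the developing cortex. Their cell bodies line the ventricle, their fibres reach to the surface of the brain, and they divide to renew themselves and to give rise to neurons, often through intermediate progenitors, and later to glia. Notch signalling keeps them undifferentiated, and they read Sonic hedgehog and FGF cues. Cortical progenitors are commonly described as relying heavily on glycolysis. Menin, the product of Men1, joins histone methyltransferases of the MLL family as a scaffold. The study's title links it to the receptor EphA4 in neurons born late.

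The gated nuclei held 1639560 UMIs in the NCKO-labelled and 1075941 UMIs in the F/F-labelled library. The median depth was 2626 UMIs and 1566 genes per nucleus in the NCKO-labelled library, against 2792 UMIs and 1650 genes in the F/F-labelled library. The median mitochondrial share was 0.129% in NCKO and 0.0792% in F/F. No barcode was gated in both libraries, although 15 barcode sequences occurred in both. Over all nuclei, Xist was detected in 96.2% of NCKO-labelled and 99.2% of F/F-labelled nuclei, while 4 Y-linked genes together had 26 UMIs in NCKO and 20 UMIs in F/F. The protocol names male mice, yet nearly all nuclei of either library carried the X-inactivation transcript with few Y-linked transcripts. In the gated nuclei the Y-linked genes had 0 UMIs in both libraries, and Xist had 5011 UMIs in NCKO and 3337 UMIs in F/F.

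The gate admitted nuclei that also held neuronal transcripts. At least 3 of 8 neuronal genes (among them Neurod6, Neurod2 and Tbr1 of excitatory neurons and Gad2 of inhibitory neurons) were detected in 88 gated NCKO-labelled nuclei (20.9%), against 42 F/F-labelled nuclei (15.5%). These nuclei were deep, with a median of 7145 UMIs in the NCKO-labelled and 7423 UMIs in the F/F-labelled library, and they held 46.6% of all gated UMIs in NCKO and 39.1% in F/F. Of them, 65 of 88 in NCKO and 35 of 42 in F/F were among the highest doublet scores of their library. Leaving them out gave 333 NCKO-labelled nuclei with 876275 UMIs and 229 F/F-labelled nuclei with 655183 UMIs, called here the nuclei with few neuronal genes. In these, 27 NCKO-labelled nuclei (8.11%) and 7 F/F-labelled nuclei (3.06%) were still among the highest doublet scores. How many scores count as highest was fixed beforehand by the number of barcodes of each library. It came to 8.61% of all NCKO-labelled and 5.20% of all F/F-labelled nuclei, so these shares do not compare doublet rates between libraries. Values are given for all gated nuclei and, beside them, for the nuclei with few neuronal genes.

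**Figure D1:**
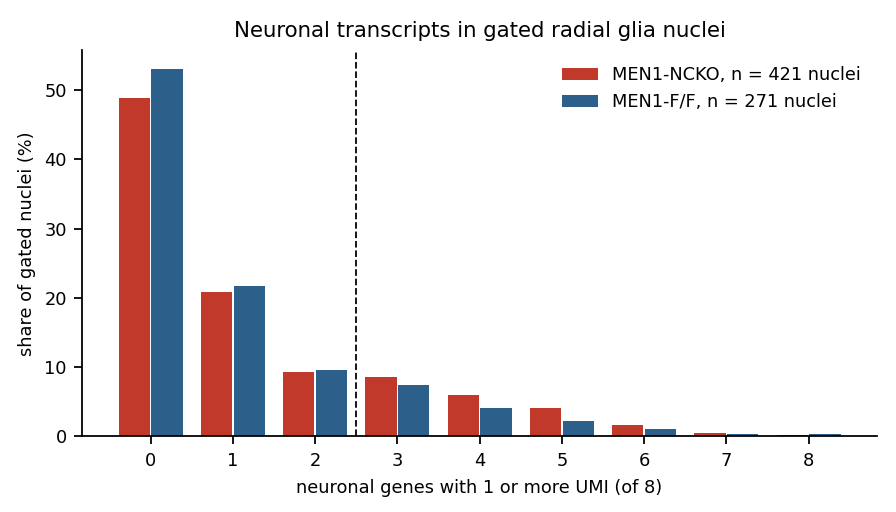
Share of gated nuclei (%) by the number of 8 neuronal genes detected, MEN1-NCKO left of MEN1-F/F at each number. Nuclei right of the dashed line, 88 of 421 in NCKO and 42 of 271 in F/F, hold 3 or more neuronal genes; 206 NCKO-labelled and 144 F/F-labelled nuclei hold none.

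Just inside the gate, nuclei with exactly 4 of the 9 genes numbered 141 in the NCKO-labelled and 76 in the F/F-labelled library, and 24.8% of the NCKO and 17.1% of the F/F nuclei held 3 or more neuronal genes. Just outside, 158 NCKO-labelled and 84 F/F-labelled nuclei had exactly 3 genes, and 31.0% of the NCKO and 32.1% of the F/F nuclei were neuronal by that count. The neuronal share was thus higher just outside the gate than just inside it in both libraries.

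Radial glia markers that the gate did not use were high in the gated nuclei beside all other nuclei together, though not throughout beside nuclei gated on astrocyte genes. All 15 markers found in the files were higher in the gated nuclei than in all other nuclei of the same library, by a median of 9.07-fold in the NCKO-labelled and 9.53-fold in the F/F-labelled library, and 14 exceeded 2-fold. Ptprz1, a receptor phosphatase abundant in human outer radial glia, had 3865 CPM (UMIs per 1000000 UMIs of the population) against 600.2 CPM in the other nuclei of the NCKO-labelled library, and 4050 against 623 CPM in the F/F-labelled library. Mfge8, a secreted adhesion protein, had 201 against 10.7 CPM in the NCKO-labelled and 243 against 10.3 CPM in the F/F-labelled library. Lhx2, a cortical selector factor that neurons also use, stood out least, with 51.2 against 42.7 CPM in the NCKO-labelled and 80.9 against 63.5 CPM in the F/F-labelled library. In nuclei gated on astrocyte genes, Ptprz1 had 4173 CPM in NCKO and 5570 CPM in F/F, above the gated radial glia. Mfge8 had 172 CPM in NCKO and 317 CPM in F/F there, and Lhx2 had 43.7 CPM in NCKO and 25.2 CPM in F/F. These markers thus did not all set the gated nuclei apart from astrocyte-gated ones.

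The 14 of these markers with at least 50 UMIs, the minimum for a measured gene here, had a median log2 ratio of -0.07 between the libraries, and none reached 2-fold. Each gene's log2 ratio sets its NCKO-labelled level over its F/F-labelled level after 10 CPM were added to both, and the added 10 draws low genes towards 0. Fabp7, the brain lipid-binding protein, had 334 CPM in the NCKO-labelled and 274 CPM in the F/F-labelled library. Vim, the intermediate filament of radial fibres, had 123 UMIs in the NCKO-labelled and 47 UMIs in the F/F-labelled library, a ratio of 1.72 (1.22 to 2.46). Hopx, a homeodomain protein used as a marker of human outer radial glia, was the lowest of them with 19.5 CPM (32 UMIs) in the NCKO-labelled and 46.5 CPM (50 UMIs) in the F/F-labelled library, a ratio of 0.420 (0.261 to 0.668). In the nuclei with few neuronal genes it had 26.2 CPM in NCKO and 62.6 CPM in F/F, just past 2-fold lower.

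Gated nuclei made up 3.92% of NCKO-labelled nuclei (Clopper-Pearson interval 3.56 to 4.31) and 4.19% of F/F-labelled nuclei (3.72 to 4.71). The ratio of these shares was 0.936, and its interval of 0.802 to 1.09 includes 1. Without the neuronal nuclei it was 0.876 (0.738 to 1.04).

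Men1 itself had few UMIs in these cells. The gene lies at chr19:6334979-6340891 on the plus strand (GRCm38) and had 17 UMIs (10.4 CPM) in the NCKO-labelled and 20 UMIs (18.6 CPM) in the F/F-labelled library. The ratio of 0.558 had an interval of 0.274 to 1.12, so a lower level was not shown at this depth. In all other nuclei Men1 was higher in the NCKO-labelled library, with 659 UMIs (13.6 CPM) in NCKO and 290 UMIs (9.99 CPM) in F/F, a ratio of 1.36 (1.18 to 1.57). The neuronal nuclei used as background below had 177 UMIs (15.4 CPM) in NCKO and 65 UMIs (8.92 CPM) in F/F. Over all nuclei it had 676 UMIs (13.5 CPM) in NCKO and 310 UMIs (10.3 CPM) in F/F, a ratio of 1.31. In nuclei gated on Eomes the ratio was 0.466 (0.107 to 1.62), and in those gated on astrocyte genes 0.610 (0.170 to 2.71). In progenitors with Dlx1 or Dlx2 it was 0.502 (0.153 to 1.75). Those gates had few Men1 UMIs, and their intervals include 1. Over all nuclei, Men1 counts thus did not show a loss in the NCKO-labelled library, and directions below are between the libraries as labelled. The part of the gene that is deleted is not given here, and 3' tags outside it would check nothing. Epha4, the receptor tyrosine kinase of the study's title, had 543 UMIs (331 CPM) in the NCKO-labelled and 505 UMIs (469 CPM) in the F/F-labelled library, a ratio of 0.706 (0.624 to 0.798). That ratio was 0.713 in the nuclei with few neuronal genes, and the log2 ratio of -0.49 compares with -0.65 in all other nuclei.

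Among 8208 genes measured in the gated nuclei outside the 17 gate genes, 27 were at least 2-fold lower in the NCKO-labelled library (0.329% of those measured) and 40 at least 2-fold higher (0.487%). In the nuclei with few neuronal genes 5870 genes were measured, of which 37 (0.63%) were at least 2-fold lower and 87 (1.48%) at least 2-fold higher. Of the 27 lower genes 19 were also among the 37, which is 70.4% of the first list and 51.4% of the second. Of the 40 higher genes 19 were also among the 87, which is 47.5% and 21.8%. Of those not shared, 7 of the lower and 15 of the higher genes were under the minimum of UMIs in the second set. There 27 of 27 lower and 39 of 40 higher genes kept their direction. The second set is part of the nuclei from which these genes were called, so a kept direction is no independent support. Of the 15 lowest and 15 highest ratios in each set, 11 of the lowest and 3 of the highest were named in both.

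The lowest ratio belonged to Grb10, an imprinted adaptor protein that dampens insulin and growth factor receptor signalling. It lies at chr11:11930508-12038683 on the minus strand. In the NCKO-labelled library its 26 UMIs in 14 nuclei gave a level of 15.9 CPM (10.4 to 23.2). In the F/F-labelled library 149 UMIs in 96 nuclei gave 138 CPM (117 to 163). The log2 ratio was -2.52, and -3.30 in the nuclei with few neuronal genes, where 7 NCKO-labelled and 79 F/F-labelled nuclei held a UMI. With every nucleus thinned to 1000 UMIs, Grb10 was detected in 0.955% of gated NCKO-labelled and 15.5% of gated F/F-labelled nuclei. Nuclei with at least 4 neuronal genes and no radial glia gate gene, which serve as background here, gave 1.05% in NCKO and 0.678% in F/F. The gated NCKO-labelled share was therefore at the background, and the F/F-labelled share was above it. At full depth the shares were 3.33% of NCKO and 35.4% of F/F gated nuclei, against 6.07% of NCKO and 7.63% of F/F background nuclei, whose median depth was 5412 UMIs in NCKO and 5367 UMIs in F/F.

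Grb10 also had log2 ratios below 0 in the related gates, but in each of them it was under the minimum of UMIs. In the Dlx progenitor gate its levels were 14.4 CPM in NCKO and 26.8 CPM in F/F, from few UMIs in either library. The log2 ratio was -2.86 in nuclei gated on astrocyte genes, -1.61 in nuclei gated on Eomes, which marks intermediate progenitors, and -0.59 in progenitors with Dlx1 or Dlx2. It was -0.34 in all other nuclei together and -0.18 in the neuronal background nuclei. Among nuclei with few neuronal genes, those with at least 2 of 6 cell-cycle genes had 3 UMIs of Grb10 in the NCKO-labelled and 41 UMIs in the F/F-labelled library, and those with none of the 6 had 3 UMIs in NCKO and 69 UMIs in F/F. Of 15 imprinted genes measured, Grb10 was the one at least 2-fold lower and none was 2-fold higher, and their median was -0.10. Meg3, a maternally expressed noncoding RNA abundant in neurons, had 1427 CPM in the NCKO-labelled and 902 CPM in the F/F-labelled library.

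Igf2bp1 encodes an RNA-binding protein of early, proliferative progenitors. It had 22 UMIs (13.4 CPM) in the NCKO-labelled and 90 UMIs (83.6 CPM) in the F/F-labelled library, a ratio of 0.160 (0.0958 to 0.258), and its log2 ratio was -2.38 with few neuronal genes. Its log2 ratio was also low outside the gate, at -1.33 in all other nuclei and -1.37 in the neuronal background nuclei. Its paralogs Igf2bp2 and Igf2bp3 had ratios of 0.605 (0.432 to 0.846) and 0.654 (0.545 to 0.784). The 8 measured genes of the early temporal identity list had a median of -0.34, with 1 at least 2-fold lower. Hmga2, a chromatin factor of early progenitors, had 43 UMIs in the NCKO-labelled and 28 UMIs in the F/F-labelled library, a log2 ratio of 0.01. Nr2f2 had 67.7 CPM in NCKO and 40.9 CPM in F/F, so the list did not move in 1 direction, and without the neuronal nuclei its median was -0.11.

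Several other low genes are noncoding or poorly characterised. F630040K05Rik, a long noncoding RNA at chr17:45734506-45788594, had 10 UMIs in 10 nuclei in the NCKO-labelled and 71 UMIs in 47 nuclei in the F/F-labelled library. Its log2 ratio of -2.24 compares with -0.33 in all other nuclei and -3.13 in the astrocyte gate, where it was under the minimum of UMIs. The value of -0.33 comes from low levels, 1.77 CPM in NCKO and 4.79 CPM in F/F, and is drawn towards 0 by the added 10 CPM. Gm28175, a noncoding RNA on chromosome 1, had 61.0 CPM in the NCKO-labelled and 216 CPM in the F/F-labelled library. Its log2 ratio was as low outside the gate, at -1.67 in gated and -1.65 in all other nuclei. The same held for 2610307P16Rik, a transcript of chromosome 13 whose nearest coding gene is Sox4, with -1.29 and -1.58. Lockd, a noncoding RNA that lies downstream of the cell-cycle inhibitor Cdkn1b, had 58.6 CPM in the NCKO-labelled and 159 CPM in the F/F-labelled library. Of the Lockd UMIs in nuclei with few neuronal genes, 48 of 55 in NCKO and 115 of 142 in F/F were in nuclei with at least 2 cell-cycle genes.

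Fam210b, a mitochondrial membrane protein, had 40.9 CPM in the NCKO-labelled and 125 CPM in the F/F-labelled library, with UMIs in 56 NCKO and 93 F/F nuclei. Some of the lowest ratios rest on few nuclei or uncertain counts. Otx2os1 had 7 UMIs in 3 nuclei in the NCKO-labelled and 62 UMIs in 7 nuclei in the F/F-labelled library, 26 of these in 1 nucleus. Adamts19 had 52 UMIs in 22 nuclei in NCKO and 113 UMIs in 25 nuclei in F/F. Gm12394 and 4930578G10Rik overlap each other on opposite strands of chromosome 4, and since the strand setting of the counting is not given here, their UMIs cannot be told apart. Gm3739 belongs to a family of similar copies, among which reads may be split.

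**Figure D2:**
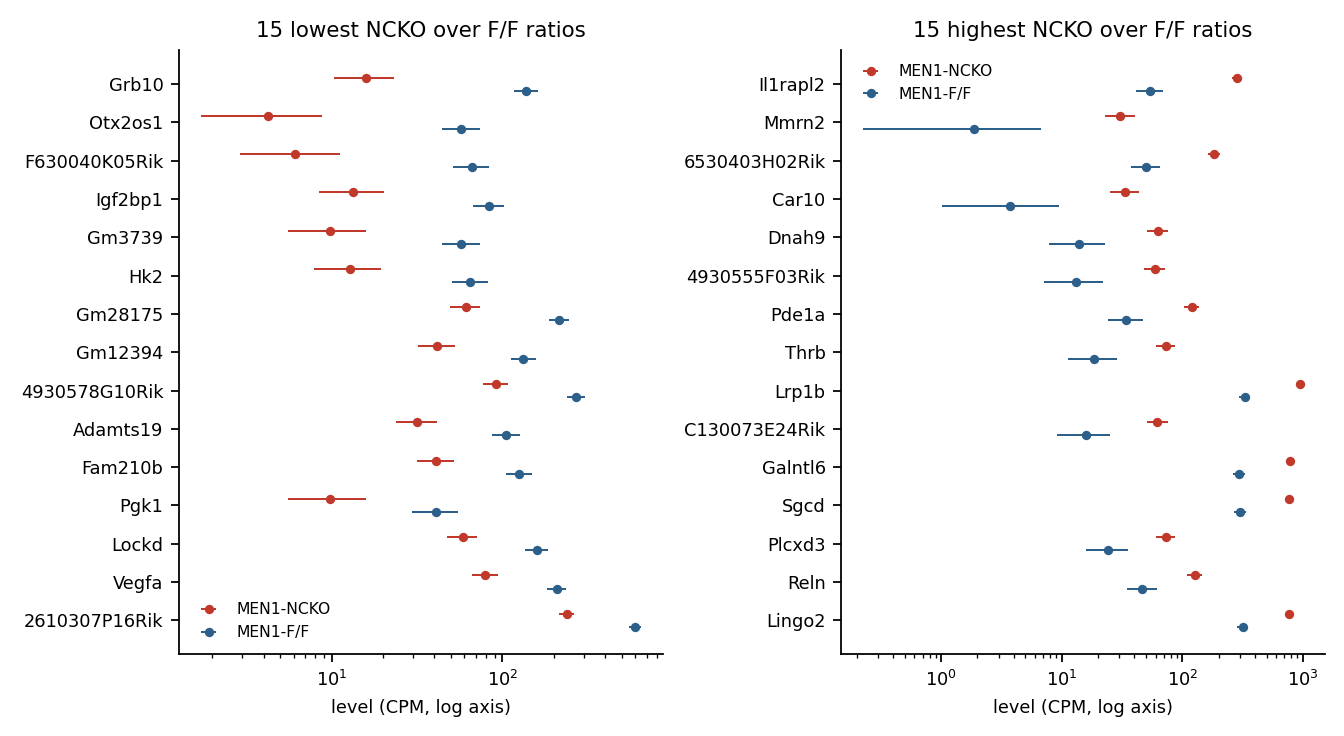
Levels (CPM, log axis) of the 15 genes with the lowest and the 15 with the highest ratios in all gated nuclei, MEN1-NCKO above MEN1-F/F for each gene; points are levels and lines exact 95% Poisson intervals. The genes were picked for their ratios in these same counts, so a gap between their intervals is no further support. Mmrn2 has the widest interval, from 2 UMIs in the F/F-labelled library.

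Glycolysis and low-oxygen response genes were lower in the NCKO-labelled library as a group. Of 27 measured, 24 were below 0, 5 were at least 2-fold lower (against 0.329% of all measured genes) and none was 2-fold higher. Their median log2 ratio was -0.52, while that of all genes was 0.00. The summed level of the list was 0.597 (0.561 to 0.636) of the F/F-labelled one. In the nuclei with few neuronal genes 17 of 19 were below 0, 6 were at least 2-fold lower, and the median was again -0.52.

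By their place in the pathway, the uptake and first steps included the glucose transporter Slc2a1, with 29 UMIs (17.7 CPM) in the NCKO-labelled and 43 UMIs (40.0 CPM) in the F/F-labelled library. Hk2, the hexokinase that traps glucose in the cell, had 21 UMIs (12.8 CPM) in NCKO and 70 UMIs (65.1 CPM) in F/F, a ratio of 0.197 (0.115 to 0.324). Hk1, the constitutive hexokinase, had 48.8 CPM in NCKO and 50.2 CPM in F/F, so the low value was seen for Hk2 and not for Hk1. Gpi1, glucose-6-phosphate isomerase, had 55 UMIs (33.6 CPM) in the NCKO-labelled and 90 UMIs (83.6 CPM) in the F/F-labelled library. Of the later steps, Pgk1, phosphoglycerate kinase, had 16 UMIs (9.76 CPM) in NCKO and 44 UMIs (40.9 CPM) in F/F. Eno1, an enolase, had 42.7 CPM in NCKO and 94.8 CPM in F/F, just short of 2-fold with a log2 ratio of -0.99. Ldha, lactate dehydrogenase, had 31.7 CPM in NCKO and 55.8 CPM in F/F, and Pkm, pyruvate kinase, had 45.1 CPM in NCKO and 57.6 CPM in F/F.

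Among the members that respond to low oxygen, Vegfa, the secreted growth factor for blood vessels, had 130 UMIs (79.3 CPM) in the NCKO-labelled and 224 UMIs (208 CPM) in the F/F-labelled library, a ratio of 0.381 (0.304 to 0.475). UMIs of Vegfa were in 100 NCKO-labelled and 124 F/F-labelled nuclei. P4ha1, a collagen prolyl hydroxylase subunit, had 148 UMIs (90.3 CPM) in NCKO and 231 UMIs (215 CPM) in F/F. Hif1a, the oxygen-regulated transcription factor, had 52.5 CPM in NCKO and 86.4 CPM in F/F. The exceptions above 0 were Aldoc, an astrocyte-enriched aldolase with 34.8 CPM in the NCKO-labelled and 24.2 CPM in the F/F-labelled library, Ndrg1, a stress-response gene, and Slc2a3, the neuronal glucose transporter. Pfkp, the platelet-type phosphofructokinase, differed in sign between the sets: its log2 ratio was -0.15 in all gated nuclei and 0.68 in those with few neuronal genes.

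The low levels of this list were not limited to radial glia. The median was -0.75 in the astrocyte gate (8 genes measured), -0.71 in the Dlx progenitor gate (7), -0.37 in the Eomes gate (11) and -0.32 in all other nuclei (37). The summed level in all other nuclei was 0.624 (0.616 to 0.631) of the F/F-labelled one, near the 0.597 of the gated nuclei. Vegfa had a log2 ratio of -1.29 in gated and -1.17 in all other nuclei, Gpi1 -1.10 and -1.49, and P4ha1 -1.16 and -1.39. Hk2 had -1.72 and -1.01. Its levels in all other nuclei were low, 3.55 CPM in NCKO and 17.3 CPM in F/F, so the added 10 CPM draws the second value further towards 0. Whether Hk2 differs between these populations was not tested.

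Promoters are shown for 3 of the 5 genes at least 2-fold lower, because they hold the core of the hypoxia response element that HIF transcription factors bind. The 300 bases run from 250 before to 50 after the RefSeq start (GRCm38.p6) on the strand of the gene. Capitals mark ACGTG or GCGTG on either strand, read as CACGT or CACGC on the opposite one. Hk2 is shown from chr6:82774405-82774704 (minus strand), Pgk1 from chrX:106186850-106187149 (plus strand) and P4ha1 from chr10:59323046-59323345 (plus strand).
Hk2: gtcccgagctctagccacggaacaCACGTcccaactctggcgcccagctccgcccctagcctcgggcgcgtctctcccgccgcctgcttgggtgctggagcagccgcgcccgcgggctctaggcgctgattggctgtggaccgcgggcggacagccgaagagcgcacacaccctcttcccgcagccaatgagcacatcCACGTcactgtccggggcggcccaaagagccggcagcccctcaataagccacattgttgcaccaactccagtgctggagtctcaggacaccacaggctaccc
Pgk1: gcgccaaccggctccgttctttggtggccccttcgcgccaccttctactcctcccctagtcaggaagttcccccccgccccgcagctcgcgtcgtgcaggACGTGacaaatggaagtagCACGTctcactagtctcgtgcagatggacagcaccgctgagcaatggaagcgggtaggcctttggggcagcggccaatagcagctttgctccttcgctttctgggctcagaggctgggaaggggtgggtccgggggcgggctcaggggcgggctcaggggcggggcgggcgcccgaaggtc
P4ha1: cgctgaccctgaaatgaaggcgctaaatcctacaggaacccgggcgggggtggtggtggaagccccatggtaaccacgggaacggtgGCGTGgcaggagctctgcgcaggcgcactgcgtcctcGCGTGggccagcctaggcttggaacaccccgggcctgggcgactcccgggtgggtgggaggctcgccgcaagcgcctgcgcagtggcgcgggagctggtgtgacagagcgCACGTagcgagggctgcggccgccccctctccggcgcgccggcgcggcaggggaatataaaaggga
Hk2 and Pgk1 hold 2 matches each and P4ha1 holds 3, while none was found in these windows of Gpi1 and Vegfa. A promoter was matched for 24 of the 27 measured list members. ACGTG occurred in 13 of these (54.2%), in 26.2% of 6344 promoters of measured genes and in 19.7% of all 27025 promoters. GCGTG occurred in 12 of the 24 (50%), in 53.4% of the promoters of measured genes and in 32.5% of all. ACGTG or GCGTG occurred in 18 of the 24, in 3 of the 5 genes at least 2-fold lower (60%), in 64.7% of the promoters of measured genes and in 43.8% of all. These matches describe only the letters of the windows.

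Sonic hedgehog pathway genes had a median of -0.45 over 8 measured members, with 6 below 0 and none past 2-fold, and -0.43 with few neuronal genes. Low values were seen among the co-receptors that bind the ligand beside Ptch1, and in Smo and Sufu. Cdon had 450 UMIs (274 CPM) in the NCKO-labelled and 578 UMIs (537 CPM) in the F/F-labelled library, a ratio of 0.511 (0.451 to 0.579). Gas1 had 104 CPM in NCKO and 168 CPM in F/F, a ratio of 0.616 (0.497 to 0.764). Boc had 133 CPM in NCKO and 192 CPM in F/F, a ratio of 0.691 (0.569 to 0.840). The receptor Ptch1, itself a target of the pathway, had 125 CPM in NCKO and 107 CPM in F/F, and its interval of 0.927 to 1.48 includes 1. Smo, the signal transducer, had 72.6 CPM in NCKO and 98.5 CPM in F/F, a ratio of 0.737 (0.562 to 0.966), and Gli2, a transcription factor of the pathway, had 187 CPM in NCKO and 188 CPM in F/F. With genes of at least 20 UMIs admitted, the list median was -0.00, and it was -0.17 with 3 gate genes required.

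The list was also low in the related gates, with a median of -0.60 in the astrocyte gate (7 of 7 measured below 0), -0.61 in the Dlx progenitor gate (4 of 4) and -0.40 in the Eomes gate (5 of 5, 1 of them at least 2-fold lower, against 0.696% of all genes measured there), beside -0.07 in all other nuclei (11 of 14). Gas1 had a log2 ratio of -0.65 in gated nuclei, -0.63 in the astrocyte gate and -0.08 in all other nuclei, and was under the minimum of UMIs in the Eomes and Dlx gates. Sufu, an inhibitor of Gli factors, had -0.54 in gated nuclei, -0.80 in the astrocyte gate, -0.10 in the Eomes gate and -0.06 in all other nuclei. Cdon had -0.94 in gated nuclei, -0.69 in the astrocyte gate, -0.76 in the Dlx progenitor gate, -1.42 in the Eomes gate and -0.50 in all other nuclei. Boc and Smo were about as low outside the gate. Boc had -0.50 in gated and -0.53 in all other nuclei, where its ratio was 0.606 (0.556 to 0.660). Smo had -0.39 in gated and -0.48 in all other nuclei, where its ratio was 0.602 (0.543 to 0.668). Differences between these populations were not tested.

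FGF and ERK pathway genes had a median of -0.27 over 12 measured members, with 11 below 0 and none past 2-fold. Fgfbp3, a secreted FGF-binding protein, was the lowest, with 218 CPM in the NCKO-labelled and 398 CPM in the F/F-labelled library and a ratio of 0.549 (0.476 to 0.633). Its log2 ratio was -0.84 in gated and -0.24 in all other nuclei. Of the receptors, Fgfr1 had 257 CPM in NCKO and 346 CPM in F/F, Fgfr3 had 57.9 CPM in NCKO and 80.9 CPM in F/F, and Fgfr2 had 701 CPM in NCKO and 724 CPM in F/F. Spry2, a feedback inhibitor induced by the pathway, had 65.9 CPM in NCKO and 98.5 CPM in F/F, while the targets Etv4 and Etv5 had log2 ratios of -0.05 and -0.07.

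**Figure D3:**
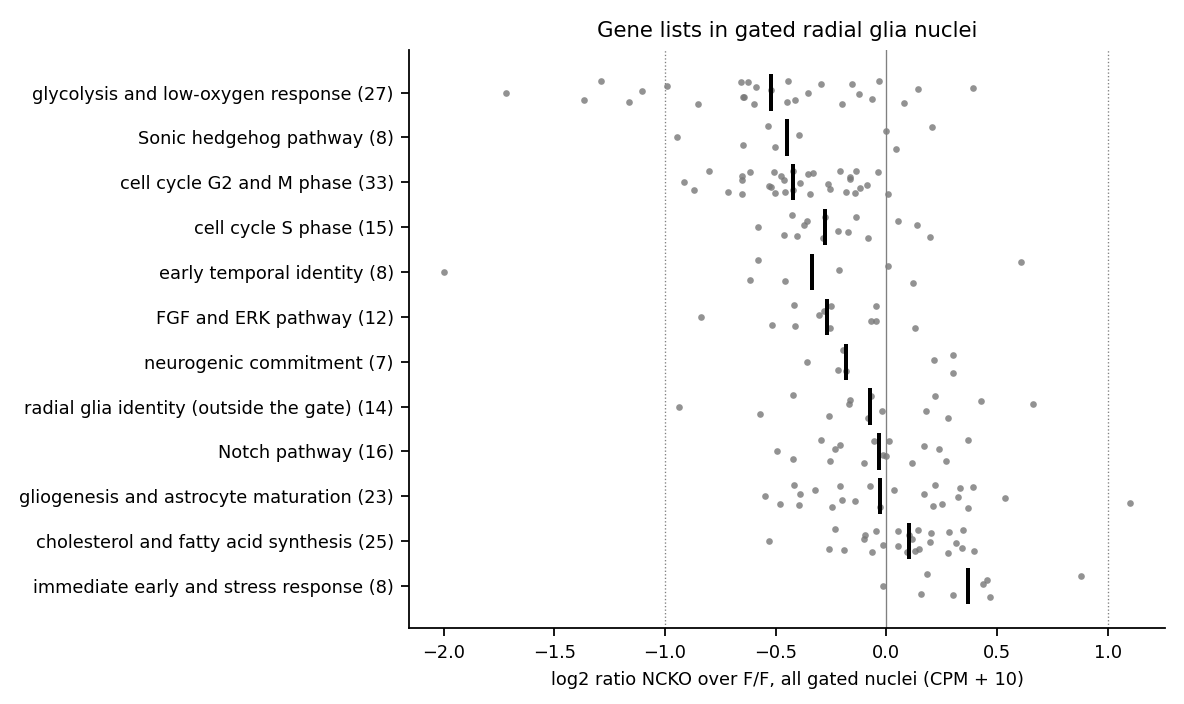
Log2 ratio, MEN1-NCKO over MEN1-F/F (CPM + 10), of every measured member of 12 gene lists in all gated nuclei; grey points are genes, black bars list medians, dotted lines 2-fold, and numbers in brackets the genes measured. The glycolysis and low-oxygen list has the lowest median, -0.52, and 5 genes beyond 2-fold.

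Cell-cycle transcripts were lower in summed counts, while the share of dividing nuclei differed beyond counting error in some comparisons and not in others. Of 33 measured G2 and M phase genes, 32 were below 0, none reached 2-fold, and the median was -0.42. With few neuronal genes all 27 measured were below 0, the median was -0.51 and Ckap2l was 2-fold lower. Top2a, the topoisomerase of dividing cells, had 185 UMIs (113 CPM) in the NCKO-labelled and 173 UMIs (161 CPM) in the F/F-labelled library, a ratio of 0.702 (0.567 to 0.868). Kif11, a spindle motor, had 59.2 CPM in NCKO and 98.5 CPM in F/F, a ratio of 0.601 (0.451 to 0.798). Mki67, the proliferation marker, had 40.3 CPM in NCKO and 44.6 CPM in F/F, a ratio of 0.902 (0.613 to 1.34). Cdk1, the mitotic kinase, had 15.9 CPM in NCKO and 30.7 CPM in F/F. The 15 measured S phase genes had a median of -0.28, with 12 below 0.

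At 1000 UMIs per nucleus, 51 of 419 NCKO-labelled nuclei (12.2%) and 32 of 271 F/F-labelled nuclei (11.8%) held a UMI of Mki67 or Top2a. The difference of 0.364 percentage points had an interval of -4.99 to 5.39. Without thinning the shares were 18.8% in NCKO and 23.2% in F/F. In the nuclei with few neuronal genes they were 11.5% in NCKO and 15.7% in F/F at 1000 UMIs, a difference of -4.24 points (-10.5 to 1.71). At that depth background nuclei gave 0.552% in NCKO and 1.02% in F/F. The list median itself was -0.14 after thinning all gated nuclei, and -0.52 after thinning those with few neuronal genes. With a nucleus counted as dividing when it held at least 2 of 6 cell-cycle genes, the shares at 1000 UMIs were 8.59% in NCKO and 8.49% in F/F of all gated nuclei. With few neuronal genes, 20 of 331 NCKO nuclei (6.04%) and 27 of 229 F/F nuclei (11.8%) were dividing by that count, a difference of -5.75 points (-11.2 to -0.763). Over both measures, both sets and the depths of 500 UMIs, 1000 UMIs and no thinning, 3 of 12 intervals lay below 0 and none above it. The other intervals below 0 were at 500 UMIs, with a difference of -5.62 points (-11.1 to -0.524) for Mki67 or Top2a with few neuronal genes and of -3.66 points (-7.47 to -0.39) for 2 or more genes in all gated nuclei.

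The same G2 and M phase genes had a median of 0.41 in Eomes-gated nuclei (17 measured, 3 at least 2-fold higher, against 1.0% of all genes measured there), 0.05 in all other nuclei and -0.73 in the astrocyte gate. The Eomes gate held 130 nuclei in the NCKO-labelled and 159 in the F/F-labelled library. Whether these medians differ between populations was not tested.

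**Figure D4:**
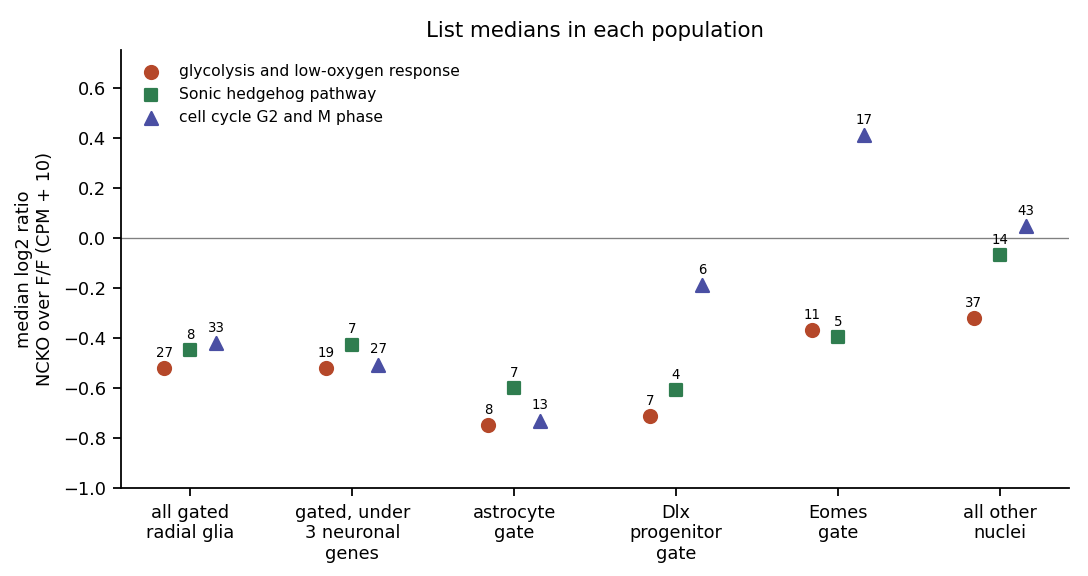
Median log2 ratio, MEN1-NCKO over MEN1-F/F (CPM + 10), of 3 gene lists in 6 populations; each point is a median and the number above it the genes measured. The glycolysis and low-oxygen median is below 0 in all 6, and the G2 and M phase median is above 0 in Eomes-gated nuclei (0.41) and all other nuclei (0.05).

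Other programmes of radial glia were close between the libraries. Notch pathway genes had a median of -0.04 over 16 members, with none past 2-fold; Notch1, a receptor of the pathway, was lowest but 1 with 109 CPM in the NCKO-labelled and 150 CPM in the F/F-labelled library. Apical junction and polarity genes, which hold radial glia at the ventricle, had a median of 0.00 over 21 members and none past 2-fold. The 10 measured genes of basal radial glia had a median of -0.09, the 22 Wnt pathway genes -0.09, and the 26 genes of menin, MLL and Polycomb complexes 0.02. None of the genes of these lists reached 2-fold in all gated nuclei. With few neuronal genes, Hopx of the basal radial glia list was at least 2-fold lower, and Rspo2, a secreted activator of Wnt signalling, was at least 2-fold higher, with 54 UMIs in NCKO and 8 UMIs in F/F. Neurogenic commitment genes had a median of -0.18 over 7 members, again with none past 2-fold.

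Gliogenesis and astrocyte maturation genes had a median of -0.03 over 23 members, which did not move in 1 direction. The factors Nfib and Zbtb20, which act in the switch to glia, had ratios of 0.683 (0.645 to 0.724) and 0.716 (0.682 to 0.753), from 2394 and 3334 UMIs in the NCKO-labelled and 2299 and 3054 UMIs in the F/F-labelled library. Sparcl1, a matrix protein of maturing astrocytes, had 320 CPM in the NCKO-labelled and 217 CPM in the F/F-labelled library, a ratio of 1.47 (1.26 to 1.73). Id1, an inhibitor of differentiation induced by BMP signals, was the member at least 2-fold higher, with 45 UMIs (27.4 CPM) in NCKO and 8 UMIs (7.44 CPM) in F/F. At 1000 UMIs per nucleus it was detected in 2.15% of NCKO and 1.85% of F/F gated nuclei.

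Genes of sterol and fatty acid synthesis had a median of 0.10 over 25 members with none past 2-fold, and 0.00 with few neuronal genes. The 8 measured stress response genes had a median of 0.37, with 7 above 0 and none past 2-fold. Hspa8, a constitutive chaperone, had 92.1 CPM in the NCKO-labelled and 45.5 CPM in the F/F-labelled library, and its log2 ratio was 0.88 in gated and 0.48 in all other nuclei. Jun, an immediate early factor, had 59.2 CPM in NCKO and 40.0 CPM in F/F. The glial transport list of 17 genes had a median of -0.09. Kcnj10, the potassium channel of glia, had 61 UMIs in the NCKO-labelled and 85 UMIs in the F/F-labelled library, a log2 ratio of -0.91.

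Among 11 measured Eph receptors and ephrins the median was 0.10. Epha6 was the member at least 2-fold higher, with 404 UMIs (246 CPM) in the NCKO-labelled and 122 UMIs (113 CPM) in the F/F-labelled library. Ephb1 and the ligand Efnb1 had log2 ratios of -0.47 and -0.43, close to the -0.49 of Epha4. Epha3 had 577 CPM in NCKO and 421 CPM in F/F.

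Most of the higher genes had their higher level in neuronal nuclei. Of the 40 at least 2-fold higher, 29 (72.5%) had higher CPM in the neuronal background nuclei than in gated nuclei with few neuronal genes of the NCKO-labelled library, against 32.5% of all measured genes. In the F/F-labelled library 33 (82.5%) did, against 32.9%. Of the 27 lower genes, 5 did in NCKO and 2 in F/F. Of the 87 higher genes of the nuclei with few neuronal genes, 68 (78.2%) did in NCKO and 78 (89.7%) in F/F. All genes measured there gave 26.9% in NCKO and 27.8% in F/F. The shares of called genes are shifted by the selection, because the gated levels compared here also helped to call these genes. They are therefore descriptive only. Neuronal nuclei held a larger share of gated UMIs in the NCKO-labelled library, and the part of neuronal RNA in these genes was not tested. The summed level of 8 excitatory neuron markers was 1864.5 CPM in the NCKO-labelled and 1849.5 CPM in the F/F-labelled gated nuclei, none of them at 0 in either library.

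Il1rapl2, a synaptic adhesion protein, had the highest ratio, with 463 UMIs in 37 nuclei (282 CPM) in the NCKO-labelled and 58 UMIs in 11 nuclei (53.9 CPM) in the F/F-labelled library. As many as 71 of its NCKO-labelled UMIs came from 1 nucleus. Lingo2 had 1252 UMIs in NCKO and 340 UMIs in F/F, and its log2 ratio of 1.25 was 2.80 in the nuclei with few neuronal genes. Car10 had 55 UMIs in NCKO and 4 UMIs in F/F, of which 32 were in 1 NCKO-labelled nucleus. Reln, the ligand that Cajal-Retzius cells secrete, had 208 UMIs in NCKO and 50 UMIs in F/F, with 90 in 1 NCKO-labelled nucleus. Its log2 ratio of 1.28 was 0.06 with few neuronal genes. The other 3 Cajal-Retzius markers had 12 UMIs together in the NCKO-labelled library and were at 0 in the F/F-labelled library.

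Mmrn2, an extracellular matrix glycoprotein known from endothelium, and Sgcd, a sarcoglycan subunit, were spread over many nuclei. Mmrn2 had 50 UMIs in 43 nuclei in the NCKO-labelled and 2 UMIs in 2 nuclei in the F/F-labelled library, a ratio of 16.4 (4.31 to 139). It was also detected in 1.16% of NCKO and 0.169% of F/F background nuclei at 1000 UMIs, against 4.06% of NCKO and 0.369% of F/F gated nuclei. Summed endothelial markers were lower in the NCKO-labelled gated nuclei, with 18.9 CPM in NCKO and 48.3 CPM in F/F. In all other nuclei they were higher, with 44.9 CPM in NCKO and 23.0 CPM in F/F, and their part in the Mmrn2 value was not tested. Sgcd had 1260 UMIs (768 CPM) in the NCKO-labelled and 325 UMIs (302 CPM) in the F/F-labelled library, in 279 NCKO and 117 F/F nuclei. At 1000 UMIs per nucleus it was detected in 45.1% of NCKO-labelled and 23.2% of F/F-labelled gated nuclei, and in 461 of 1811 NCKO and 177 of 1180 F/F background nuclei. Its log2 ratio of 1.32 was 1.38 with few neuronal genes and 0.71 in all other nuclei. Thrb, a thyroid hormone receptor, had 119 UMIs in 64 nuclei in NCKO and 20 UMIs in 11 nuclei in F/F. Its log2 ratio was 1.53 in gated and 0.19 in all other nuclei. In the related gates it was 2.28 (astrocyte), 0.79 (Dlx progenitor) and 0.59 (Eomes).

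**Figure D5:**
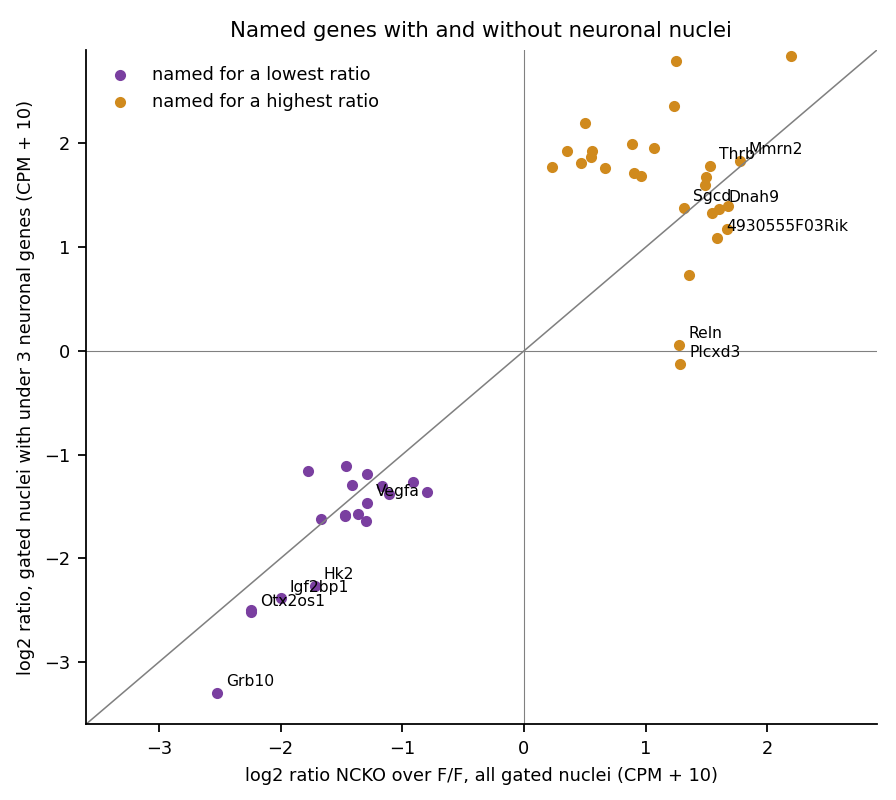
Log2 ratio, MEN1-NCKO over MEN1-F/F (CPM + 10), of the named genes in all gated nuclei (x axis) and in gated nuclei with under 3 neuronal genes (y axis); the diagonal marks equal values. The axes share nuclei, so they are no independent check of each other. The genes named for a lowest ratio are below 0 on both axes, while Plcxd3 is at 1.28 and -0.12 and Reln at 1.28 and 0.06.

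Markers of further cell types were sparse in the gated nuclei. Summed levels in the NCKO-labelled and F/F-labelled library were 22.6 and 27.0 CPM for 6 markers of ganglionic eminence progenitors, 21.3 and 52.0 CPM for 6 of oligodendrocyte precursors, and 80.5 and 60.4 CPM for 7 of microglia. Those of 6 ependymal and choroid plexus markers were 9.76 CPM in NCKO and 19.5 CPM in F/F, and those of 5 meningeal markers 22.0 CPM in NCKO and 3.72 CPM in F/F. Of the ganglionic eminence markers 2 were at 0 in each library. Of the ependymal and choroid plexus markers 2 were at 0 in the NCKO-labelled and 4 in the F/F-labelled library. Of the meningeal markers none was at 0 in the NCKO-labelled and 3 were at 0 in the F/F-labelled library. Erythroid markers, which come from blood RNA, had 81.1 CPM in NCKO and 46.5 CPM in F/F.

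Genes of motile cilia, which ependymal cells build at the end of neurogenesis, were looked at after Dnah9, an axonemal dynein, appeared among the highest ratios. Dnah9 had 103 UMIs in 53 nuclei in the NCKO-labelled and 15 UMIs in 12 nuclei in the F/F-labelled library. Of 30 listed genes 14 were measured and had a median of 0.48, and their list was chosen after these values were seen. The summed level was 753 CPM in the NCKO-labelled and 435 CPM in the F/F-labelled library, a ratio of 1.73 (1.55 to 1.93), and 1.76 (1.55 to 2.01) with few neuronal genes. It was 1.30 (1.25 to 1.34) in all other nuclei. The programme's master regulators were near the detection limit: Foxj1 had 10 UMIs in NCKO and 1 UMI in F/F, Mcidas 8 UMIs in NCKO and 1 UMI in F/F, and Ccno 5 UMIs in NCKO and 0 UMIs in F/F. Cdc20b, a gene of multiciliated precursors, had 64 UMIs in 5 NCKO-labelled nuclei with few neuronal genes, 40 of them in 1 nucleus, and 4 UMIs in 4 F/F-labelled nuclei.

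At 1000 UMIs per nucleus, 25 of 419 NCKO-labelled gated nuclei (5.97%) and 7 of 271 F/F-labelled ones (2.58%) held at least 3 of the cilium genes. That difference of 3.38 points had an interval of 0.00895 to 6.50. At 500 UMIs the difference was 0.98 points (-2.11 to 3.70). Without thinning the shares were 15.4% in NCKO and 13.7% in F/F, a difference of 1.79 points (-3.94 to 7.21). With few neuronal genes they were 6.95% in NCKO and 4.37% in F/F at 1000 UMIs, a difference of 2.58 points with an interval of -1.73 to 6.57. The interval was thus barely above 0 in all gated nuclei at 1000 UMIs. It included 0 at the other depths and once the neuronal nuclei were left out. At 1000 UMIs background nuclei gave 0.166%, from 3 of 1811, in the NCKO-labelled library, and 0 of 1180 in the F/F-labelled library. The count of 0 allows a share of up to 0.254% by the limit of 3 counts and 0.312% by the Clopper-Pearson interval. Without thinning, background nuclei gave 10.05% in NCKO and 6.86% in F/F, beside the 15.4% and 13.7% of gated nuclei.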

How the data were processed

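UMI counts per gene and barcode were deposited as whole numbers, not normalized. Per the file headers, Cell Ranger 6.1.0 wrote them. The build is mm10, per the submitters' processing notes, which also name Seurat without a role. The sources used here do not say whether counting used strand. Positions come from GENCODE vM21 (GRCm38), which held 32241 of 33938 gene identifiers. Promoters come from RefSeq.

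UMIs were summed per library and population, scaled to CPM, the count per 1000000 of all its UMIs, and compared for genes whose UMIs in both libraries summed to 50 or more, leaving out the 17 gate genes. With 1 library per label a fixed rule of size, 2-fold on (CPM + 10), stood in for a test. Levels carry exact Poisson, ratios exact conditional binomial, shares Clopper-Pearson and differences of shares Newcombe-type 95% intervals, for counting error only. Doublets were scored by a Python version of the Scrublet approach and kept in the main values; the highest scores are 0.8% per 1000 barcodes. Random thinning to 1000 UMIs set equal depth. Ratios and intervals were tested on simulated data.

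Named genes were Men1, Epha4, members of 36 lists and the 15 highest and 15 lowest ratios, in all gated nuclei and, as an addition, in those with few neuronal genes. Members and lists were chosen with earlier results of these data known. Python 3.11.15, numpy 2.4.6, scipy 1.17.1, pandas 2.3.3, scikit-learn 1.9.0 and R 4.3.3 with edgeR 4.0.16 (scaling factors only) were used.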

Additional observations from a re-analysis of the deposited data

Results flagged for a closer look

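Plcxd3, a phospholipase C-like protein, had a log2 ratio of 1.28 in the gated nuclei and -0.07 in all other nuclei, opposite in sign. That difference was not tested. Its 120 UMIs were in 47 gated NCKO-labelled nuclei and its 26 UMIs in 14 F/F-labelled nuclei. In the gated nuclei with few neuronal genes the log2 ratio was -0.12.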

How the results depend on the processing

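No paired analysis was possible because each label has 1 library. The ratio of shares of gated nuclei lay between 0.865 and 0.983 under 6 other gates. The count of genes at least 2-fold lower in the NCKO-labelled library, 27, was 43 with at least 5 gate genes, 80 with CPM + 1, 6 with CPM + 50 and 17 with a minimum of 100 UMIs. The count of higher genes, 40, was 80 without the highest doublet scores, 87 without the neuronal nuclei, 108 with CPM + 1 and 7 with CPM + 50. Higher genes made up 59.7% of those called, 70.2% without the neuronal nuclei, 50.8% after thinning, 52.4% with 3 gate genes and 53.8% with CPM + 50. TMM and median-ratio factors moved all log2 ratios by -0.0029 and 0.0050.

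The G2 and M phase median of -0.42 was -0.14 after thinning, -0.23 in nuclei with no dividing gene, -0.25 with CPM + 50 and -0.52 after leaving out neuronal nuclei and thinning. The glycolysis and low-oxygen median of -0.52 was -0.86 after thinning, -0.69 with CPM + 1, -0.32 in nuclei with no dividing gene and -0.30 with CPM + 50. The sterol and fatty acid median of 0.10 was -0.074 without neuronal nuclei and after thinning. The log2 ratio of 4930555F03Rik turned to -0.40 without the highest doublet scores and to -0.28 without neuronal nuclei and after thinning. That of Plcxd3 turned to -0.12 without neuronal nuclei. The causes were not tested. Of the 15 lowest ratios, all kept their sign in 15 alternatives, which reuse the counts that picked these genes and so give no independent support. Settings that combine leaving out neuronal nuclei with thinning, leave out mitochondrial genes or thin nuclei to 2000 UMIs before gating were chosen after seeing the data. The number of nuclei limits shares of rare genes, and 1 library per label leaves no estimate of variation between animals.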
